A study of Mus musculus with 1528 samples.

Results

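The genes Ccl2, Ccl7, Ccl8 and Ccl12 encode a group of closely related CC chemokines that attract monocytes, and they lie next to each other in the mouse genome. They were chosen by name, as 4 of the 55421 genes in the table of counts, and were followed through bone marrow–derived macrophages (BMDMs) at the level of single cells. The BMDMs came from 2 wild-type C57BL/6 mice, were grown in macrophage colony-stimulating factor (M-CSF, also called CSF1) and received IL4+IL13, alone or together with TNF (IL4+IL13+TNF), for 24 h at 10 ng/ml of every cytokine. Both groups thus carry M-CSF, IL4 and IL13, and they differ by TNF. The age of the mice is not given in the sources used here. Live single cells were sorted by flow cytometry into the wells of 4 plates, and both treatments of 1 mouse were present on every plate (plates 2 and 3 for mouse 1, plates 4 and 5 for mouse 2). On every plate the IL4+IL13 wells began in row A and the TNF wells in row I. Differences between the treatments thus cannot be told apart from differences between these parts of a plate, also where the plate is a block. The replicate is the mouse, so n is 2 per group, and the fits on sums per mouse weigh a change against a spread between cultures. With so few animals, these fits estimate that spread in part from all genes together, so it is not the spread of 1 gene alone. The p-values from plate sums, where given, rest in part or wholly on the spread between plates of the same mouse.

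CC chemokines are small secreted proteins named for a pair of adjacent cysteines near their amino end, and they act through G protein–coupled receptors on leukocytes. Ccl2 and Ccl12 act mainly through CCR2, the receptor that brings inflammatory monocytes out of the bone marrow and into tissue. Ccl7 also uses CCR2 along with other receptors such as CCR1 and CCR3, and mouse Ccl8 acts on CCR8. Macrophages are a main source of all these ligands, NF-kB and AP-1 are the known activators of the best studied of them, Ccl2, and TNF is a classic inducer of both factors. IL4 and IL13 signal through STAT6 and drive the alternatively activated (M2) state.

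All 4 genes lie on the plus strand of chromosome 11 (mm10) within 81229 bases. Ccl2 spans chr11:82035571-82037453 and Ccl7 spans chr11:82045712-82047525, with 8258 bases between them. Ccl12 spans chr11:82101845-82103400 and Ccl8 spans chr11:82115185-82116799, with 11784 bases between them. The gap between the Ccl2 and Ccl7 pair and the Ccl12 and Ccl8 pair is 54319 bases and holds Ccl11, an eosinophil-attracting chemokine. Each gene has 3 exons, and the codons of the adjacent cysteines lie in exon 2 of each. The 60 coding bases around them, from the transcripts of the GENCODE annotation of GRCm38, are shown because they are the family's defining feature and because the similarity of the genes bears on how far their fragments can be told apart. Capitals mark the codons of the adjacent cysteines, which begin at codon 34 of Ccl2, 33 of Ccl7, 33 of Ccl12 and 32 of Ccl8.
Ccl2: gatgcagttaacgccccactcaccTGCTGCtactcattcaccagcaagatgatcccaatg
Ccl7: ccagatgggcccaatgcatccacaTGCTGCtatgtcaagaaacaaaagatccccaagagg
Ccl12: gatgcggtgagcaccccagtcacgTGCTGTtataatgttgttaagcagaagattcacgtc
Ccl8: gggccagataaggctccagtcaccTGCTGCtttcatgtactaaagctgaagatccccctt
In these stretches Ccl8 and Ccl12 had the same base at 38 of 60 positions and Ccl7 and Ccl8 at 20 of 60. Over the aligned coding sequences, with gaps counted as columns, identity ranged from 44.8% (Ccl2 and Ccl8) to 65.0% (Ccl7 and Ccl8). The coding sequence of Ccl2 has 447 bases, against 294 for Ccl7 and Ccl8 and 315 for Ccl12, and the extra bases lower its percentages. Counted in bases, Ccl2 and Ccl12 had the most in common (217) and Ccl7 and Ccl8 the fewest (197). No stretch of 50 bases, the length of 1 sequenced read, was shared by any pair of the 4 whole transcripts, and the longest shared run was 23 bases, in Ccl2 and Ccl7.

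The promoters of Ccl8 and Ccl12 are shown because the promoter sequences at hand held only these 2 of the 4 genes. Those of Ccl2 and Ccl7 were not analysed here, so whether they share the features below is not known. Any part of these features in the change with TNF was not tested. The windows are the 250 bases before the start of transcription from RefSeq (GRCm38.p6, plus strand), at chr11:82114935-82115184 for Ccl8 and chr11:82101595-82101844 for Ccl12. Capitals mark runs of 8 or more bases that both share at positions no more than 20 bases apart.
Ccl8: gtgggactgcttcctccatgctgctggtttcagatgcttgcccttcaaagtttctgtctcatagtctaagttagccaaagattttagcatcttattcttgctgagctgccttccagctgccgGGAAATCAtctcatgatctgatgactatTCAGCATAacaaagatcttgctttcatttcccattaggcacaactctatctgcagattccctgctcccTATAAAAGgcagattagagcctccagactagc
Ccl12: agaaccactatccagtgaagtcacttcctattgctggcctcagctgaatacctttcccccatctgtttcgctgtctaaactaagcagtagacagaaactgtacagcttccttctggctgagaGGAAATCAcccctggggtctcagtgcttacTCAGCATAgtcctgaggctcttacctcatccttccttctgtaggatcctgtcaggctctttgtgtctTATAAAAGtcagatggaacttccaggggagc
The aligned promoters had the same base in 150 of 270 columns (55.6%). The shared runs were GGAAATCA, which began 128 bases before the start in both, TCAGCATA (100 bases before the start of Ccl8 and 98 before that of Ccl12) and TATAAAAG (32 and 31 bases before). The last run holds the TATA box, TATAAA, which stood in 12.4% of 32851 mouse promoters of 300 bases searched the same way on both strands. AP-1 (TGACTCA, in 4.46% of promoters), the STAT motif TTCNNNGAA (7.02%), the STAT6 motif with 1 more base of spacing (5.85%), ISRE (2.98%), NF-kB (7.25%), the MAF core TGCTGAC (3.81%) and C/EBP (TTGCGCAA, 0.164%) were also searched on both strands, and these letters were not found in either window.

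Of 1524 wells with a known mouse and treatment, 1386 cells were kept. Mouse 1 gave 357 cells with IL4+IL13 and 347 with TNF, and mouse 2 gave 333 and 349. The kept cells held 200235 to 6122892 fragments on genes (median 472319). Smart-seq2 carries no molecular identifiers, so PCR copies are counted and all intervals below cover counting error only. All 8 macrophage markers were above 1 CPM (the fragments of a gene per 1000000 fragments counted on genes), and their summed level was 15500 to 17400 CPM with IL4+IL13 and 26640 to 27260 CPM with TNF, most of it Lyz2 (11700 to 13210 and 23010 to 23820 CPM). Of the others, Adgre1, Cd68, Itgam, Fcgr1, Mertk and Cd14 were lower with TNF in both mice. Fcgr1 went from 70.0 and 69.2 to 19.2 and 20.1 CPM. Csf1r stood at 849.1 and 1322 CPM without and 1019 and 1318 CPM with TNF. All 6 stromal markers, and all markers of B, T and mast cells, were under 1 CPM in each sum. The 4 dendritic markers summed to 7.83 to 10.7 CPM without and 29.8 to 203.6 CPM with TNF, where Ccr7 alone gave 20.5 and 190 CPM and Flt3 6.99 to 7.20 CPM, and the 3 monocyte markers to 7.89 to 20.2 and 7.93 to 10.3 CPM. At most 1 cell per mouse and treatment had over 100 CPM of stromal markers, and these cells held at most 3.92% of the summed CPM of any of the 4 chemokines. Cells with over 100 CPM of neutrophil markers numbered 0 to 2 per set and held at most 6.39% (Ccl12, mouse 2 with IL4+IL13), and those with over 100 CPM of monocyte markers numbered 6 to 13 and held at most 2.70% (Ccl2, mouse 1 with IL4+IL13).

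Ccl2 and Ccl7 were the more abundant pair in BMDMs stimulated with IL4+IL13, at levels that differed between the mice more than between the treatments. The fragments of all kept cells were added up for each mouse and treatment. With IL4+IL13, Ccl2 stood at 699.2 CPM in mouse 1 and 135.9 CPM in mouse 2, and with TNF at 518.6 and 157.5 CPM (mean 417.6 ± 398.3 and 338.1 ± 255.3, SD, n = 2). Ccl7 stood at 826.4 and 137.8 CPM with IL4+IL13 and at 442.7 and 185.9 CPM with TNF (482.1 ± 486.9 and 314.3 ± 181.6 CPM, SD, n = 2). Mouse 1 was the higher mouse for both genes under both treatments, 5.14-fold for Ccl2 and 6.00-fold for Ccl7 with IL4+IL13, and the treatment groups overlapped. Each mouse had its own plates, and the paper describes 2 independent experiments. Differences between the mice thus cannot be told apart from differences between plates or experiments. With TNF the values went opposite ways in the 2 animals. In mouse 1 the level without TNF was 1.35-fold that with TNF for Ccl2 and 1.87-fold for Ccl7, on both plates, whereas in mouse 2 the level with TNF was 1.16-fold and 1.35-fold that without, again on both plates.

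Ccl8 and Ccl12 were the low pair with IL4+IL13 and stood several-fold higher with TNF in both mice. With IL4+IL13, Ccl8 had 39.1 CPM in mouse 1 and 60.0 CPM in mouse 2, and with TNF it had 213.1 and 476.4 CPM (49.6 ± 14.8 and 344.8 ± 186.2, SD, n = 2). Ccl12 had 45.7 and 27.0 CPM with IL4+IL13 and 127 and 143.5 CPM with TNF (36.3 ± 13.2 and 135.3 ± 11.6, SD, n = 2). Every sum with TNF was above both sums without, for both genes. The ratio of TNF to IL4+IL13 was 5.45 and 7.94 for Ccl8 and 2.78 and 5.32 for Ccl12 in mouse 1 and mouse 2. The plates gave the same order, since Ccl8 ranged from 33.6 to 89.8 CPM on the 4 plates without TNF and from 170 to 537.1 CPM with it, and Ccl12 from 23 to 52.1 and from 121.1 to 155.5 CPM. Mouse 2 had the higher Ccl8 under both treatments, the opposite of the order for Ccl2 and Ccl7.

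**Figure D1:**
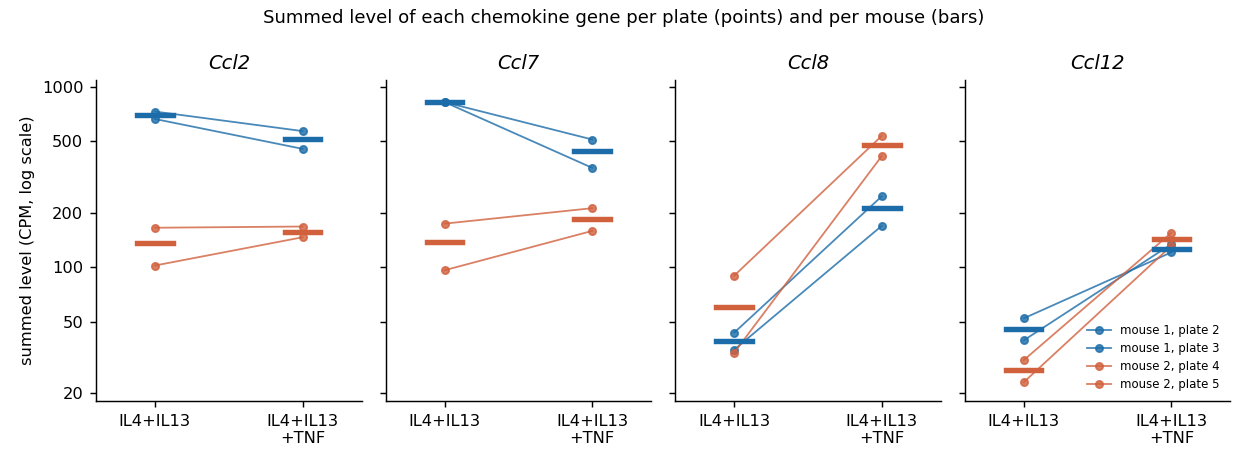
Level of each chemokine gene in CPM (log axis) summed over the kept cells of each plate, for IL4+IL13 and IL4+IL13+TNF, as points in the color of the mouse, with each plate's treatments joined by a line and bars for the sums per mouse. The lines of Ccl8 and Ccl12 go up on 4 of 4 plates, while those of Ccl2 and Ccl7 go down on the plates of mouse 1 and up on the plates of mouse 2.

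The sums were tested with edgeR's quasi-likelihood test over 17034 genes with Benjamini-Hochberg adjustment, and a gene was called at an adjusted p under 0.05. With treatment as the only term, 0 of the 4 chemokines were called, in a fit that called 0.00587% of the genes (1 gene, Clec4e, with 1380 genes at an unadjusted p under 0.05). The log2 fold changes with TNF were −0.21 (SE 0.91, adjusted p = 0.986) for Ccl2 and −0.53 (SE 0.89, adjusted p = 0.950) for Ccl7. They were 2.89 (SE 0.46, adjusted p = 0.210) for Ccl8 and 1.98 (SE 0.31, adjusted p = 0.210) for Ccl12. In the fit with the mouse as a block, which compares the treatments within each animal, Ccl8 rose by 2.81 on the log2 scale (SE 0.16, edgeR adjusted p = 0.00688) and Ccl12 by 2.03 (SE 0.24, edgeR adjusted p = 0.0203). That fit called 3.82% of the genes, 1.94% as higher, and 2 of the 4 chemokines as higher. Ccl2 had −0.017 (SE 0.17, edgeR adjusted p = 0.966) and Ccl7 −0.14 (SE 0.31, edgeR adjusted p = 0.840) in it. In mouse 1 and mouse 2, the log2 change of the CPM was 2.45 and 2.99 for Ccl8 and 1.475 and 2.41 for Ccl12. It was −0.43 and 0.21 for Ccl2 and −0.90 and 0.43 for Ccl7. With so few sums, the block fit takes its spread in part from all genes together. Its SEs and p-values thus do not measure the spread between these values of the 2 mice. DESeq2 on the same sums, with treatment as the only term, called Ccl8 (2.88, adjusted p = 3.39e-09) and Ccl12 (1.98, adjusted p = 6.97e-07) among 3.89% of genes (1.98% as higher). On the 8 plate sums with the plate as a block, edgeR called the same 2 chemokines among 9.87% of genes (4.72% as higher). That fit counts plates of the same mouse as replicates, and they are not independent animals. Without the TNF sum of mouse 1, Ccl8 was called in a fit with treatment as the only term that called 0.176% of genes (0.170% as higher).

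Whether the change with TNF itself differed between the animals was tested on the 8 plate sums with edgeR's mouse-by-treatment term, a test chosen after the opposite directions of Ccl2 and Ccl7 had been seen. The change was higher in mouse 2 by 1.44 (SE 0.24) for Ccl7, 0.71 (SE 0.19) for Ccl2, 0.92 (SE 0.22) for Ccl12 and 0.68 (SE 0.37) for Ccl8 on the log2 scale. None of these passed adjustment over all genes (edgeR adjusted p = 0.604 for Ccl7, Ccl2 and Ccl12 and 0.721 for Ccl8). The test called 0 genes, with 1321 at an unadjusted p under 0.05, and plates of 1 mouse are not independent animals. Since each mouse had its own plates, the term cannot tell the animal from the plates or the experiment.

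With TNF, Ccl8 and Ccl12 made up a larger part of the 4 transcripts together in both mice. With IL4+IL13 their summed level was 1610 CPM in mouse 1 and 360.7 CPM in mouse 2, and with TNF it was 1301 and 963.3 CPM. Ccl8 made up 2.43% and 16.6% of it without TNF and 16.4% and 49.5% with TNF, while Ccl7 made up 51.3% and 38.2% without and 34.0% and 19.3% with. In mouse 2 with TNF, Ccl8 was the most abundant of the 4, a place that Ccl7 held in both mice without TNF.

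Within each sum the ratio between a pair of genes does not depend on the depth of that sum. The log2 ratio of Ccl2 to Ccl8 fell by 2.88 in mouse 1 and 2.78 in mouse 2, and that of Ccl7 to Ccl12 fell by 2.38 and 1.98. All 4 ratios of Ccl2 or Ccl7 to Ccl8 or Ccl12 were lower with TNF on 4 of 4 plates. The ratio of Ccl8 to Ccl12 was higher with TNF on 4 of 4 plates, by a mean of 0.78 ± 0.28 (SD over mice, n = 2), and that of Ccl2 to Ccl7 was higher on 2 plates and lower on the other two. In exact two-sided permutation tests over the 4 sums, p was 0.333 or 0.667 for these 6 ratios and 0.667 after Benjamini-Hochberg adjustment, and 0.333 is the smallest p that 2 against 2 sums allow.

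Per kilobase of exon, a scale on which different genes can be compared, Ccl7 was at 601.9 ± 607.9, Ccl2 at 366.9 ± 350, Ccl8 at 97.0 ± 29.0 and Ccl12 at 67.7 ± 24.6 CPM per kb with IL4+IL13 (SD, n = 2). With TNF the order of the means was Ccl8 (674.7 ± 364.3), Ccl7 (392.3 ± 226.7), Ccl2 (297.1 ± 224.4) and Ccl12 (251.9 ± 21.7 CPM per kb). Neighbors in either order differed by less than the larger SD of the pair, except Ccl8 and Ccl12 with IL4+IL13, which differed by about as much.

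The transcripts were spread unevenly over the cells. A cell was called high for a gene when its level was over 100 CPM, a threshold chosen after the levels had been seen. The share of cells high for Ccl2 was 60.8% in mouse 1 and 24.6% in mouse 2 with IL4+IL13, against 49.6% and 27.8% with TNF. For Ccl7 the shares were 48.2% and 17.7% without and 36.3% and 21.2% with TNF. The shares of these genes followed the sums, down in mouse 1 and up in mouse 2.

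High cells for Ccl8 were rare in both mice with IL4+IL13, at 7.0% (25 of 357 cells, 95% exact Clopper-Pearson interval 4.58 to 10.2%) and 7.21% (24 of 333, 4.67 to 10.5%). With TNF they made up 26.8% (93 of 347, 22.2 to 31.8%) and 40.7% (142 of 349, 35.5 to 46.1%). For Ccl12 the shares were 9.24% and 8.41% without TNF and 19% and 22.9% with it. The level within high cells was also higher, with a median of 178.6 and 210.8 CPM without and 345.1 and 496 CPM with TNF for Ccl8. For Ccl12 that median went from 329.6 to 306.5 CPM in mouse 1 and from 158.9 to 322 CPM in mouse 2. Cells between 50 and 200 CPM, near the threshold, made up 5.60 to 15.9% of the cells for Ccl8.

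**Figure D2:**
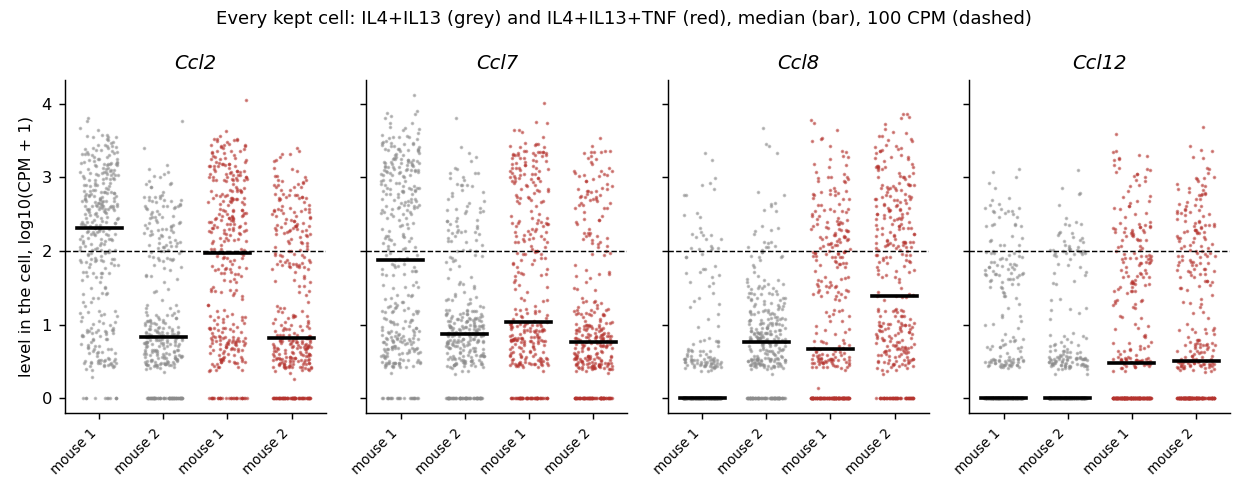
Level of each chemokine gene in every kept cell, as log10(CPM + 1), by mouse and treatment (gray without TNF, red with it), with the median as a bar and the threshold of 100 CPM as a dashed line. For Ccl8, 7.0% and 7.21% of cells lie above the line without TNF and 26.8% and 40.7% with it.

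A small share of the cells held a large share of each transcript. The top 10% of cells held 48.8% to 69.3% of the summed CPM of Ccl2 and 55.6% to 82.5% of that of Ccl7 across mice and treatments. For Ccl12 they held 75.3% to 83.7%. For Ccl8 they held 96.8% and 89.6% with IL4+IL13 and 77.6% and 68.5% with TNF, so Ccl8 was less concentrated with TNF in both mice. The single highest cell held 17.4% and 23% of all Ccl8 CPM with IL4+IL13 and 7.88% and 4.70% with TNF. In the highest cell of all, Ccl7 reached 13220 CPM, in mouse 1 with IL4+IL13.

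Small numbers of fragments were found far more widely than high levels. At an equal depth of 339000 fragments drawn from every cell, a depth that 136 of 1386 cells did not reach (25 and 24 with IL4+IL13, 44 and 43 with TNF), Ccl8 was found in 28.0% and 71.8% of cells with IL4+IL13 and in 59.4% and 77.8% with TNF. Without thinning, the difference between the treatments was 19.9 percentage points, against 18.7 ± 18 (SD over mice, n = 2) with thinning. At a minimum of 10 fragments the shares were 10.5% and 15.5% without and 36.6% and 48.0% with TNF, a difference of 29.3 ± 4.54 percentage points. The gap between the mice with IL4+IL13 thus lay in cells with a few fragments, not in high cells.

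For Ccl12 the share with a fragment was 15 ± 5.60 percentage points higher with TNF, while it was 3.89 ± 1.46 points lower for Ccl2 and 6.55 ± 1.55 points lower for Ccl7. None of these passed an exact two-sided permutation test over the 4 shares (p = 0.667 for Ccl2, Ccl7 and Ccl8 and 0.333 for Ccl12, the smallest possible p being 0.333). No cell type expected to lack the genes was present in number, so no background share of fragments carried between wells could be measured directly. In cells at or under 100 CPM, the rank correlation between a gene's fragments and its fragments in the wells of the same row and column ranged from −0.067 to 0.48 over genes, plates and treatments (median 0.13, given as a description). For Ccl8 with IL4+IL13 it was 0.10 and 0.46 on the plates of mouse 1 and 0.088 and 0.13 on those of mouse 2. The part of such carry-over in the low shares was not tested. The shares, overlaps and counts of high cells do not rest on cells with a few fragments, whereas the rank correlations below run over all cells of a set and include them.

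Cells high for one of the chemokines tended to be high for another, and the closest pair was Ccl2 and Ccl7. Their rank correlation across cells was 0.72 and 0.42 with IL4+IL13 and 0.69 and 0.55 with TNF in mouse 1 and mouse 2 (sets of 333 to 357 cells). For Ccl8 and Ccl12 it was 0.24 and 0.25 without TNF and 0.35 and 0.53 with it. The mean over the 4 sets was 0.60 for Ccl2 and Ccl7, 0.39 for Ccl7 and Ccl12, 0.37 for Ccl2 and Ccl12, 0.34 for Ccl8 and Ccl12, 0.33 for Ccl7 and Ccl8, and 0.24 for Ccl2 and Ccl8. Cells of a set share a culture, plates and, in part, depth, so these values are descriptions. The mean over all pairs was 0.38, and 0.35 with total fragments and detected genes taken out.

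The pairs on the chromosome were thus not mirrored in full by the pairs across cells. In the mean over the 4 sets, Ccl2 and Ccl7, separated by 8258 bases, were the most alike. Ccl8 and Ccl12, separated by 11784 bases, were in that mean about as alike as Ccl12 was to Ccl2. With TNF, Ccl8 and Ccl12 had 0.35 and 0.53 in mouse 1 and mouse 2, against 0.52 and 0.42 for Ccl2 and Ccl12. In the top 10% of cells with TNF, Ccl8 and Ccl12 shared 15 and 16 of 35 cells, against 13 and 11 for Ccl2 and Ccl12. Ccl11, which lies inside the cluster, was found in 5 of 1386 cells, and Ccl1, the next chemokine gene downstream, in 10 of 1386. The antisense gene Gm17268, which spans Ccl2, had 0 fragments, and counting did not use the strand.

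**Figure D3:**
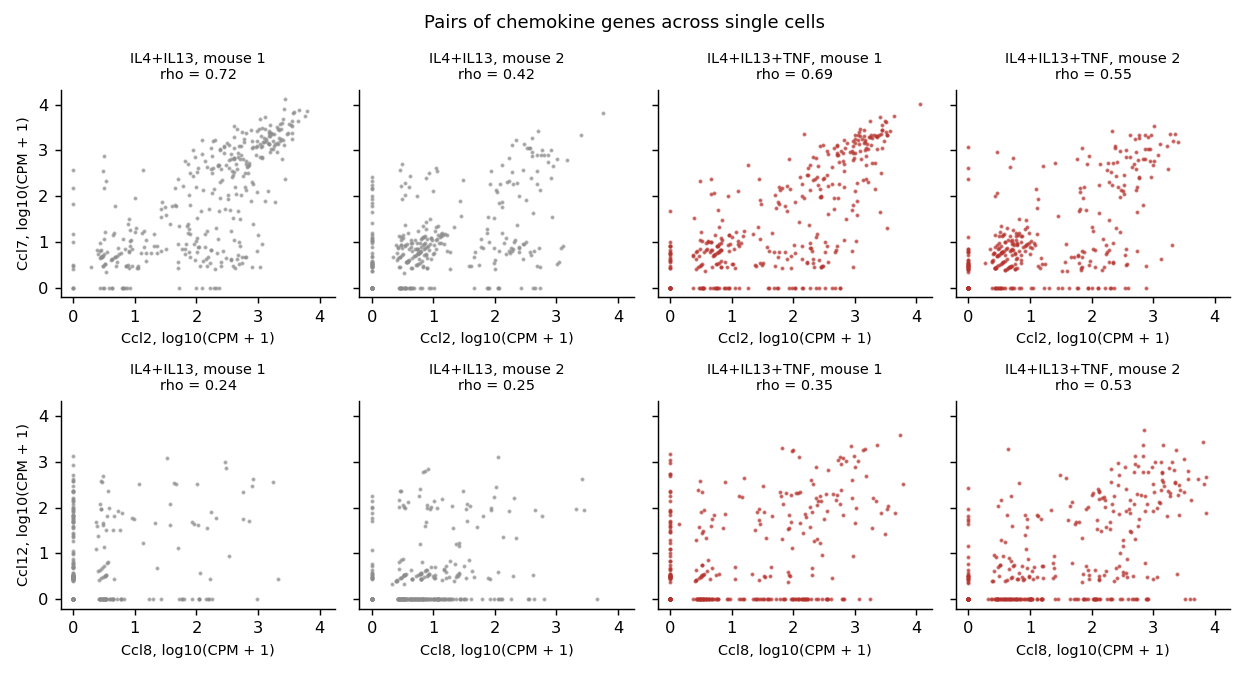
Ccl7 against Ccl2 (top row) and Ccl12 against Ccl8 (bottom row) in each kept cell, as log10(CPM + 1) on both axes, by mouse and treatment, with the rank correlation (rho) above each panel. Cells high for Ccl7 are mostly also high for Ccl2 (89.5%, 66.1%, 88.9% and 77.0% over the 4 sets), while many cells high for Ccl2 lack high Ccl7.

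The overlap among high cells was uneven. Of cells high for Ccl7, 89.5% and 66.1% without TNF and 88.9% and 77.0% with TNF were also high for Ccl2. Of cells high for Ccl2, 71.0% and 47.6% without and 65.1% and 58.8% with TNF were high for Ccl7. The Ccl7-high cells were therefore closer to a subset of the Ccl2-high cells than the reverse. Of cells high for Ccl12, 21.2% (7 of 33) and 14.3% (4 of 28) were high for Ccl8 with IL4+IL13, against 60.6% (40 of 66) and 85.0% (68 of 80) with TNF.

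Among cells that were not high for Ccl12, Ccl8-high cells made up 5.56% and 6.56% without and 18.9% and 27.5% with TNF. With TNF the share of Ccl8-high cells was thus greater both inside and outside the Ccl12-high cells. In the top 10% of cells of each set, Ccl2 and Ccl7 shared 21 of 36, 17 of 33, 23 of 35 and 19 of 35 cells, where 3.27 to 3.63 would be shared if the genes were independent. Ccl8 and Ccl12 shared 10 of 36 and 6 of 33 without and 15 of 35 and 16 of 35 with TNF.

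Counted per cell, 116 of 357 (32.5%) and 209 of 333 (62.8%) cells were high for none of the 4 genes with IL4+IL13, and 135 of 347 (38.9%) and 169 of 349 (48.4%) with TNF. All 4 genes were high in 7 and 2 cells without TNF and in 30 (8.65%) and 35 (10.0%) cells with TNF. Independence of the genes within each set would give 0.677, 0.088, 3.18 and 1.92 such cells. The median depth of cells high for all 4 was above that of the other cells in 3 of 4 sets, with 542300 against 479100 and 524900 against 476200 fragments in mouse 1 and mouse 2 without TNF and 521500 against 486500 in mouse 2 with TNF. It was below in mouse 1 with TNF (406700 against 452200), and the part of depth in these counts was not tested. At equal depth, all 4 genes had at least 10 fragments in 4.52% and 2.27% of cells without TNF and in 13.5% and 15% with it.

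**Figure D4:**
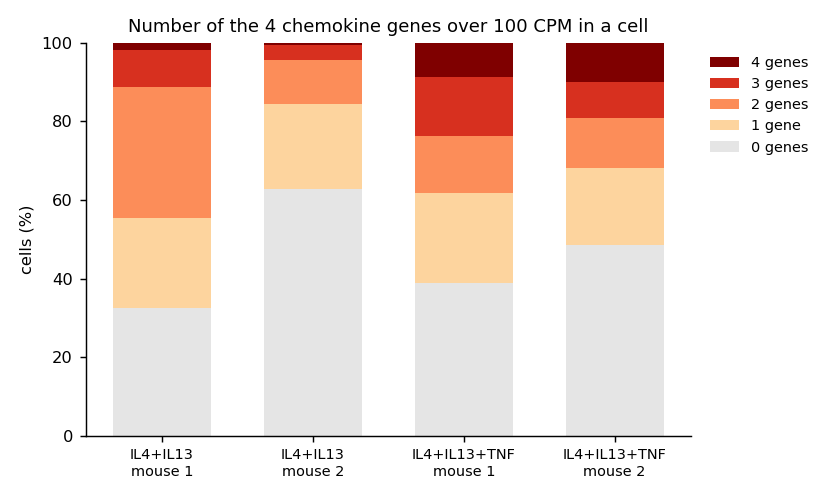
Percent of kept cells (stacked bars) by the number of the 4 chemokine genes over 100 CPM, for each mouse and treatment. The share with all 4 is 1.96% and 0.601% without TNF and 8.65% and 10.0% with it.

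The genes whose levels across cells were most like those of the chemokines were named by rank correlation averaged over the 4 sets, among 9566 genes found in at least 25% of cells of every set. For Ccl2 they were Dab2 (0.33), an endocytic adaptor, Sdc4 (0.30), Mrc1 (0.29), Stab1 (0.27) and Maf (0.27). For Ccl7 they were Dab2 (0.34), Mrc1 (0.33), Stab1 (0.30), Sdc4 (0.29) and Ap2m1 (0.28). For Ccl8 they were Mrc1 (0.34), the complement genes C1qc (0.32), C1qb (0.30) and C1qa (0.29), and Ap2m1 (0.28). For Ccl12 they were Mrc1 (0.32), Ms4a6c (0.31), Gas6 (0.30), Maf (0.29) and Sdc4 (0.29). Mrc1, the macrophage mannose receptor, thus stood in all 4 lists, and the C1q genes in that of Ccl8 alone. The values are weak and range from 0.045 to 0.56 over sets. At the other end stood Anxa1 (−0.35, −0.32 and −0.30 for Ccl2, Ccl7 and Ccl12), Ctss (−0.32 for Ccl2 and Ccl7), the integrin gene Itgb2 (−0.30, −0.24 and −0.26 for Ccl7, Ccl8 and Ccl12), Csf2rb2 (−0.29 for Ccl2), Csf2rb (−0.23 for Ccl8 and −0.28 for Ccl12) and Mmp12 (−0.24 for Ccl8).

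With TNF, the median Mrc1 level was 718.2 CPM in Ccl8-high cells and 321.9 CPM in the other cells of mouse 1, and 1023 and 312.4 CPM in mouse 2. C1qc stood at 361.1 against 105.3 CPM and 639.7 against 117.2 CPM, and the transcription factor gene Maf at 53.4 against 6.88 and 89.6 against 4.61 CPM. Higher C1qc was not particular to Ccl8. Its medians with TNF were 342 against 121.6 and 823.5 against 176.8 CPM in Ccl12-high and other cells. For Ccl2 they were 244.8 against 97.96 and 527.9 against 196.5 CPM, and for Ccl7 266 against 105.4 and 520.4 against 211.2 CPM. Itgb2 was lower in Ccl8-high cells (570 against 958.5 and 515.7 against 817.9 CPM), as was Anxa1 (2893 against 4883 and 1259 against 3149 CPM). Clec4e, a C-type lectin gene that rose with TNF (log2 fold change 5.09, edgeR adjusted p = 0.0204), had similar medians in Ccl8-high and other cells (209.4 and 249.5, and 132.7 and 130.5 CPM). Its medians were 305.1 against 143 and 152.6 against 115.3 CPM in Ccl2-high and other cells. For Ccl7 they were 299 against 209.6 and 161.7 against 118.9 CPM, and for Ccl12 414.1 against 212.1 and 112.8 against 135.9 CPM. The genes compared here were chosen after the correlations had been seen, and the comparison is a description without a test.

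**Figure D5:**
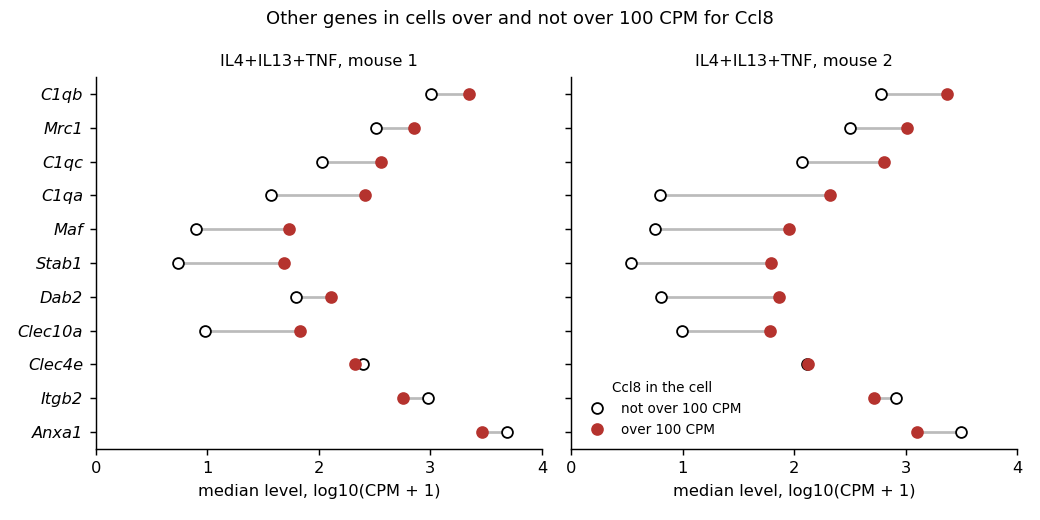
Median level of other genes, as log10(CPM + 1), in cells over (red) and not over (open) 100 CPM of Ccl8 with IL4+IL13+TNF, by mouse. Mrc1, C1qc and Maf have higher medians in Ccl8-high cells of both mice, Itgb2 and Anxa1 lower ones, and Clec4e differs little.

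Other genes of the pathway were read from lists of named genes, which were chosen with earlier results of these data known. The counts per list are therefore descriptions and do not test the lists against all genes. They come from the fit with the mouse as a block, beside a median log2 fold change of 0.011 over all genes in that fit. Of 16 other CC chemokines, 11 were tested, 6 rose and 2 fell with TNF (1.94% and 1.88% of all genes did), with a median of 0.61. Ccl22 and Ccl17, ligands of CCR4, went from 1.10 and 0.690 to 43.7 and 369.4 CPM and from 0.118 and 0.290 to 2.90 and 70.7 CPM. Ccl5 rose from 2.80 and 1.63 to 33.5 and 59.0 CPM. Ccl3 and Ccl4, the macrophage inflammatory proteins, fell from 231.7 and 126.6 to 102.5 and 64.2 CPM and from 159.8 and 65.2 to 58.5 and 34.4 CPM. Thus CC chemokines went both ways with TNF, and Ccl9 (0.61, SE 0.062), the most abundant of them, had a smaller log2 fold change than Ccl8.

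Of 8 receptors and scavengers of the chemokines, 4 were tested and 1 rose, Ccrl2, from 7.78 and 5.11 to 16.6 and 15.4 CPM. Ccr2 itself had 7.65 and 18.2 CPM without and 10.3 and 6.60 CPM with TNF (edgeR adjusted p = 0.668 with the block). Of 8 cytokine receptor genes, all were tested and 1 rose, Il2rg, the common gamma chain that IL4 uses (1.44, SE 0.10). Of 22 transcription factors and inhibitors, 4 rose and none fell: Nfkbia (1.96), Nfkb2 (1.59), Tnfaip3 (2.43) and Relb (2.23), which belong to NF-kB signaling or its feedback. Of 5 mRNA decay factors, Zfp36l2 fell by 0.86. Of 20 cell state genes, 5 rose and 5 fell.

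Across cells, the 4 NF-kB genes that rose had mean rank correlations with the chemokines between −0.046 and 0.082. Maf had 0.27, 0.27, 0.23 and 0.29 with Ccl2, Ccl7, Ccl8 and Ccl12. Ccr2 lay between −0.014 and 0.046.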

How the data were processed

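Single BMDMs were measured by Smart-seq2, in 1524 wells of 2 mice under 2 treatments. Per the paper's methods, the authors aligned 50-base paired reads to mm10 with GSNAP and assigned uniquely mapped fragments to Ensembl genes with featureCounts 1.6.3. Per the file headers, fragments were counted without regard to strand. The authors deposited these counts as whole numbers, without normalization and with 92 spike-in rows, which were left out. The submitters' processing notes also name Seurat 3 and bcl2fastq 2.19.1. A further 8 columns fit no label and were set aside. 4 samples whose labels give no mouse were put in no group, and 3 of them have a column.

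Within each plate, a limit of 3 median absolute deviations from the median removed wells with low log fragments or low log gene numbers, and wells with a high mitochondrial or spike-in share. No doublet caller was run, since cells were sorted singly. Counts were summed per mouse and treatment (162260282 to 179757666 fragments per sum) and tested with edgeR 4.0.16 (glmQLFit, glmQLFTest, TMM, treatment as the only term) in R 4.3.3, on 17034 genes found in at least 5% of cells of either treatment and passing filterByExpr, with Benjamini-Hochberg adjustment. Alternatives were the mouse as a block, DESeq2 1.42.0, other size factors, no gene filter, limma 3.58.1 on log2 of the mean CPM + 1, other cell filters, plate sums and leaving out each sum. The same mouse number marks the same animal in both treatments, and deviations of these sums from the treatment means correlated with r = 0.57 over 17034 genes.

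Shares of cells with at least 1 or 10 fragments used cells thinned to 339000 fragments, the 10th percentile, except where given without thinning. Shares, overlaps and counts of high cells used all kept cells at their own depth. The edgeR step was tested on simulated counts. Sequences came from GENCODE transcripts and RefSeq promoters, which held 2 of the 4 genes. The named genes were the 4 chemokines, their neighbors, the listed genes with the highest mean CPM or past the threshold, and the 5 genes most and 3 least like each chemokine across cells. Genes outside this rule (Ccr2 and those of the comparison by Ccl8 level) were named after their values were seen. The members and lists were chosen with earlier results of these data known. The other steps ran in Python 3.11.15 (scipy 1.17.1, pandas 2.3.3, numpy 2.4.6, matplotlib 3.10.9).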

Additional observations from a re-analysis of the deposited data

Results flagged for a closer look

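In 3 wells that are labelled IL4+IL13 without a mouse and that enter no comparison, some chemokine levels stood above the highest IL4+IL13 plate sum. The plate sums are means over many cells, and each of these values is 1 well. The wells held 279461, 354874 and 87198 fragments on plates 3, 4 and 5, where 3 fragments amount to 10.7, 8.45 and 34.4 CPM. They held 10802, 11121 and 8314 detected genes. Kept IL4+IL13 cells had medians of 7874 and 7431 genes at 479576 and 477262 fragments in mouse 1 and mouse 2. Unlike the other wells, their names begin with the letter B, and whether each holds a single cell was not tested. Ccl8 was at 100.2 CPM on plate 3 and 245.2 CPM on plate 4, against 89.8 CPM in the highest plate sum. Ccl12 was at 60.8 CPM on plate 3, 121.2 CPM on plate 4 and 57.3 CPM on plate 5, against 52.1 CPM. Ccl2 and Ccl7 were below the highest plate sums in the same wells. The fourth such sample was not analysed here.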

How the results depend on the processing

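Over 151 alternative values, 131 kept their direction and their side of the threshold or stayed within their limit. For shares and ratios the side could not change, because the smallest p of their permutation tests is 0.333. For correlations the limit was the SD over the main values, and they were counted for each pair and again for all pairs. The tally is therefore a description and no measure of robustness. The log2 fold change of Ccl8 lay between 2.21 and 3.35 and that of Ccl12 between 1.65 and 2.42 over 13 alternatives each, and adjusted p ranged from 3.39e-09 to 0.35 and from 6.97e-07 to 0.422. Ccl8 passed the threshold in 4 alternatives: with the mouse as a replicate block (2.81), in DESeq2 (2.88), on plate sums with the plate as a block (2.84) and without the IL4+IL13+TNF sum of mouse 1 (3.35, edgeR adjusted p = 0.0241). Ccl12 passed with the mouse block (2.03), in DESeq2 (1.98) and with the plate block (2.05). Ccl2 and Ccl7 passed in none, with adjusted p from 0.506 and 0.466 to 1.00. Their sign was not stable: Ccl2 had 0.041 in limma on the mean CPM per cell, and leaving out 1 sum gave −1.34 to 1.42 for Ccl2 and −1.31 to 1.30 for Ccl7, with positive values without the IL4+IL13 sum of mouse 1 (1.42 and 1.30) and, for Ccl2, without the TNF sum of mouse 2 (0.41). The log2 ratio of Ccl2 to Ccl7 was −0.22 without mouse 1 and 0.47 without mouse 2. The number of genes called was 1, and 651 with the mouse block, 598 in DESeq2, 1682 with the plate block, 0 in limma (1532 at an unadjusted p under 0.05) and 4 to 30 with 1 sum left out, where the spread of a lone sum is taken from the other group. The cause of these differences was not tested. The Ccl8 share with a fragment differed by 5.93 percentage points in mouse 2 alone and 31.4 in mouse 1 alone. Library size in place of TMM put the median log2 fold change of all genes at −0.089. The design holds 2 mice, so no permutation test over sums can reach 0.05, and fewer molecules and less amplification of a transcript cannot be told apart without molecular identifiers.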

Other observations

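Mrc1, the gene most like Ccl8 across cells, itself fell with TNF in the fit with the mouse as a block (log2 fold change −0.89, edgeR adjusted p = 0.0289), from 1233 and 1256 to 534 and 739.3 CPM, while Ccl8 rose. Within TNF-treated cells, Ccl8-high cells still had the higher median Mrc1 in both mice.

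With TNF, the dendritic marker Ccr7 had a lower mean level in chemokine-high cells than in the other cells, while its median was 0 in both, so the means rest on a minority of cells. Mean Ccr7 was 0.287 CPM in Ccl2-high cells and 30.7 CPM in the other cells of mouse 1, and 1.61 and 257 CPM in mouse 2. For Ccl8-high cells it was 0.247 against 21.3 CPM and 19.9 against 299.9 CPM. Ccl22, whose median was also 0 in both, had a mean of 0.106 against 68.4 CPM and 4.97 against 522.9 CPM in Ccl2-high and other cells, and of 0.122 against 47.1 CPM and 203.8 against 499.1 CPM in Ccl8-high and other cells. These are descriptions of cells of 2 mice, without a test.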
